A study of Mus musculus with 70 samples.

Results

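The melanocortin system was followed through a mouse brain atlas by 5 genes: the ligand genes Pomc and Agrp, the receptor genes Mc3r and Mc4r, and Mrap2, which encodes a receptor accessory protein. They were taken by gene name from 34677 genes, in 70 libraries of 24 groups. RNA came from punches of frozen brain sections and was sequenced as bulk mRNA with short single reads. The 57 adult libraries came from 18 regions of male C57BL/6NTac mice at P56 (postnatal day 56). Another 9 libraries came from 4 regions of C57BL/6NTac embryos at embryonic stage E14.5, and 4 from 2 clones of C57BL/6 embryonic stem cells (mESC B6-1 and mESC B6-2). No animal carried an engineered allele or received a treatment, so the comparisons were between regions and stages.

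The hypothalamic groups were the arcuate (ARH), ventromedial (VMH), dorsomedial (DMH) and paraventricular (PVH) nuclei and the lateral area (LHA). The hindbrain groups were the dorsal vagal complex (DVC), the nucleus of the solitary tract (NTS) and the parabrachial nucleus (PB). Cortex was sampled as anterior cingulate (ACA), frontal pole (FRP) and entorhinal area (ENT). Cerebellum was sampled as the cerebellar nuclei (CBN), 3 vermal sites (CENT2, CUL4-5 and UVU) and the flocculus (FL). The nucleus accumbens (ACB) and the ventral tegmental area (VTA) stood alone. The embryonic groups were terminal and peduncular hypothalamus (THy-PHy), forebrain (F), midbrain (M) and hindbrain (H). Groups had 2 to 4 libraries, apart from F with 1. Most adult libraries pooled several mice and each embryonic library pooled several embryos, so every SD and p-value below measures the spread between pools, and mice were shared between regions.

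As background, the Pomc precursor is cut into melanocyte-stimulating hormones, which activate the melanocortin receptors on target neurons and reduce food intake. The Agrp peptide opposes them as an antagonist and inverse agonist at the same receptors. The receptors of Mc3r and Mc4r signal through stimulatory G protein and cyclic AMP, and loss of Mc4r causes obesity in mice and humans. The Mrap2 protein is a small single-pass membrane protein that binds melanocortin receptors and alters their signaling. In the adult brain the best known Pomc and Agrp neurons lie in the arcuate nucleus, and Pomc neurons are also described in the solitary tract nucleus.

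The genes lie on different chromosomes of GRCm38. Pomc (ENSMUSG00000020660.6) spans chr12:3954951-3960642 on the plus strand, Mc3r (ENSMUSG00000038537.1) spans chr2:172248492-172251114 on the plus strand and has 1 annotated transcript, and Mrap2 (ENSMUSG00000042761.14) spans chr9:87144306-87184045 on the plus strand. To show what distinguishes a ligand, a receptor and the accessory gene at their starts, the 250 bases before each start site are given for the 3 members found in the RefSeq promoter table (GRCm38.p6). Each is written 5′ to 3′ on the plus strand, with CG dinucleotides and TATAAA in capitals.
Pomc, chr12:3954695-3954944: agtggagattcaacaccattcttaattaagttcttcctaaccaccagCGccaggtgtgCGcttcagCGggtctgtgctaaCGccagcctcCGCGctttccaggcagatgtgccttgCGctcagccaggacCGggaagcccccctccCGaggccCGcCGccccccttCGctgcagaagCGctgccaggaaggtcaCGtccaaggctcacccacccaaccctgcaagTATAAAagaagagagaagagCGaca
Mc3r, chr2:172248242-172248491: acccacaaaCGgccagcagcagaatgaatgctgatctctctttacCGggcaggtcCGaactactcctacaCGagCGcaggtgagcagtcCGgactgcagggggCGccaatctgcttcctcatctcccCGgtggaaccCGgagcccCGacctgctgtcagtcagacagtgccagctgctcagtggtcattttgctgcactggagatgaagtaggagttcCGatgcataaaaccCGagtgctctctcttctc
Mrap2, chr9:87144056-87144305: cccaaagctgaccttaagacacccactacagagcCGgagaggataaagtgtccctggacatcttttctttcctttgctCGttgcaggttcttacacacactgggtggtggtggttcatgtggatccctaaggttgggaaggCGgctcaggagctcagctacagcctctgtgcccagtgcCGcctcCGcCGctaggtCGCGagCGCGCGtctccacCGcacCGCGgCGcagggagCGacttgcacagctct
The search for TATAAA covered both strands. It was found in the Pomc stretch, where its first base lies 25 bases before the start site, and not in the other 2 stretches. Over all 32851 promoters of the table, 12.4% held it in the same 250 bases. The CG count was 15 for Pomc, 12 for Mc3r and 16 for Mrap2, against a median of 6 over all promoters. These letter counts describe the stretches and were not set against expression.

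Levels are given as TPM, the share of a transcript among all transcripts of a library times 1000000, which the authors scaled by transcript length and library. The total estimated count ran from 9074581 to 22229582 per library, with a median of 17016935. VTA replicate 1 stood apart, with 39.6% of its TPM on mitochondrial transcripts, and H replicate 1 followed with 22.6%, against a median of 7.49% over all libraries. Punches also held neighboring tissue. Hcrt and Pmch, which mark lateral hypothalamic neurons, had means of 799 and 3525 TPM in VMH against 1446 and 4539 TPM in LHA. The VMH marker Nr5a1 had a mean of 18.2 TPM in ARH against 33.6 TPM in VMH, and Avp had 865 TPM in ARH against 645 TPM in PVH. In bulk tissue, fewer cells of a type and less RNA per cell cannot be told apart. Fold changes come from edgeR's quasi-likelihood test over 19960 genes, and a gene was called at a Benjamini-Hochberg adjusted p under 0.05 with an absolute log2 fold change over 1.

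**Figure D1:**
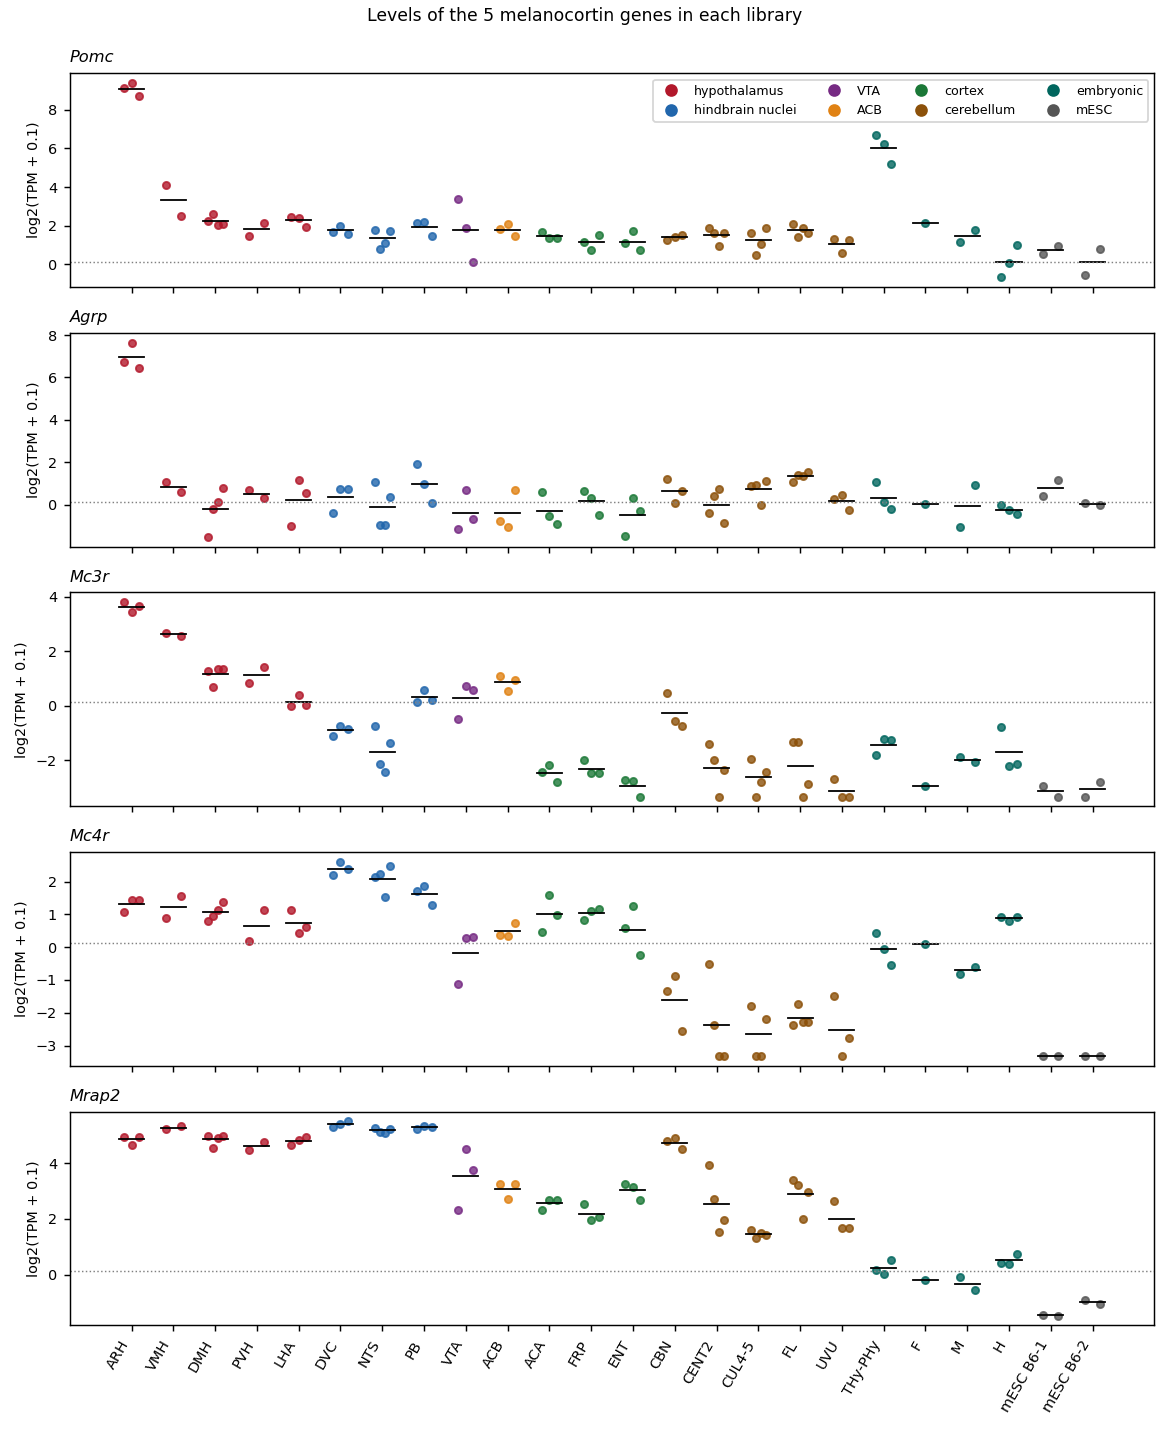
Levels of the 5 genes, 1 panel each, as log2(TPM + 0.1) in every library of the 24 groups, with a point per library, a bar at the group mean of these log values and a dotted line at 1 TPM. Pomc and Agrp peaked in ARH (means 551 and 132 TPM), Mc3r in ARH (12.3 TPM), and Mc4r and Mrap2 in DVC (5.17 and 42.0 TPM).

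The ligands were concentrated in a single nucleus, Mc3r less so, and Mc4r and Mrap2 were spread widely. Of the mean TPM summed over the 22 brain regions, ARH held 79.4% for Pomc, 83.8% for Agrp and 40.3% for Mc3r, so most Mc3r lay outside it. DVC, the highest region for the remaining members, held 14.9% for Mc4r and 11.7% for Mrap2. Between the top and bottom adult region, the means differed by a factor of 272 for Pomc, 185 for Agrp, 67.0 for Mc4r and 15.8 for Mrap2. No factor is given for Mc3r, whose lowest region, UVU, rests on 1 count over 3 libraries. With the 24 groups ranked by mean, the library ranges of neighboring groups overlapped in 21 of 23 pairs for Pomc, 22 for Agrp, 20 for Mc3r, 21 for Mc4r and 17 for Mrap2. The order within the middle of each ranking therefore lies within the spread between libraries.

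Pomc, the precursor of the activating ligands, was highest in ARH. Its level was 554, 672 and 427 TPM in the 3 ARH libraries. THy-PHy ranked next at 104, 74.7 and 36.7 TPM, and the VMH libraries held 17.4 and 5.58 TPM. All ARH libraries lay above all THy-PHy libraries, and all of these lay above both VMH libraries.
In the remaining hypothalamic nuclei Pomc was low: 4.65, 6.08, 3.99 and 4.19 TPM in DMH, 5.43, 5.21 and 3.73 TPM in LHA, and 2.65 and 4.36 TPM in PVH. These ranges overlapped one another and those of most regions outside the hypothalamus. In NTS, where Pomc neurons are described, Pomc had a mean of 2.56 ± 0.83 TPM (SD, n = 4), and in DVC a mean of 3.28 ± 0.54 TPM (SD, n = 3), close to the 2.62 TPM averaged over the cerebellar regions. The VTA libraries were far apart, at 10.3, 3.61 and 0.966 TPM, and the highest was the library with the large mitochondrial share. Every group reached a mean of 1 TPM for Pomc, including the stem cell clones at 1.58 and 1.103 TPM, so values of a few TPM do not set a region apart here.

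Against the other hypothalamic nuclei, Pomc was 71.7-fold higher in ARH (log2 fold change 6.16, SE 0.30, edgeR adjusted p = 2.46e-22). Because ARH was part of the mean that each other nucleus was set against, Pomc came out lower in DMH (-1.95, SE 0.35, edgeR adjusted p = 0.000349), LHA (-1.61, SE 0.38, edgeR adjusted p = 0.00132) and PVH (-2.30, SE 0.48, edgeR adjusted p = 0.000803). The PVH call was lost without PVH replicate 1 (edgeR adjusted p = 0.111). For the hypothalamus against the other adult regions the log2 fold change was 2.02 (SE 0.18, edgeR adjusted p = 3.21e-14), and with ARH left out it was 0.79 and no longer called.

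Genes of the anterior pituitary, which itself makes Pomc, were present in the same ARH libraries. The TPM summed over 9 markers (Cga, Fshb, Lhb, Tshb, Prl, Gh, Pitx1, Tbx19 and Pax7) was 84.3, 131 and 123 in ARH, and 15.6, 40.1 and 28.3 in THy-PHy. Cga, the shared glycoprotein hormone subunit, made up most of the ARH sum at a mean of 78.9 TPM. In THy-PHy, Fshb, Prl and Gh were at 0 in all 3 libraries, whereas other markers were present. Means there were 10.6 TPM for Pitx1, 10.4 TPM for Cga, 3.56 TPM for Tshb and 2.35 TPM for Tbx19. Pax7 and Lhb were at 0.973 and 0.136 TPM. In the other hypothalamic libraries the sum ran from 1.94 to 18.9 TPM. In M it reached 39.7 TPM, mainly from Pax7 (mean 26.7 TPM), which the midbrain also expresses. A high sum did not always go with high Pomc. ENT replicate 1 had a sum of 39.5 TPM (Gh 22.9, Prl 10.3), NTS replicate 4 of 28.0 TPM (Gh 22.3) and DVC replicate 1 of 19.5 TPM (Gh 15.8), with Pomc at 2.01, 3.22 and 3.06 TPM. Within the hypothalamus the group mean of the sum was highest in ARH and THy-PHy, the groups with most Pomc, although LHA replicate 1 exceeded the lowest THy-PHy library. In VMH, next in Pomc, the sum was only 3.09 and 6.05 TPM. Within THy-PHy the library with the lowest sum, 15.6 TPM, had the highest Pomc, 104 TPM. The part of pituitary tissue in the Pomc level was not tested.

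Agrp, the antagonist made by a separate set of arcuate neurons, was low in every group outside ARH. The ARH libraries held 107, 200 and 87.7 TPM, and the next group by mean was FL at 2.44 ± 0.36 TPM (SD, n = 4). No library outside ARH exceeded 3.63 TPM, and that was a PB library. Against the other hypothalamic nuclei Agrp was 94.1-fold higher in ARH (log2 fold change 6.56, SE 0.35, edgeR adjusted p = 1.34e-20). It was lower in DMH (-2.23, SE 0.46, edgeR adjusted p = 0.00284) and LHA (-1.56, SE 0.48, edgeR adjusted p = 0.0155), again against a mean that included ARH. The LHA call was lost without LHA replicate 1 (edgeR adjusted p = 0.173) or LHA replicate 3 (edgeR adjusted p = 0.0564).

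The transcripts behind the Agrp values differed between ARH and elsewhere. Agrp (ENSMUSG00000005705.10) spans chr8:105566698-105637393 on the minus strand. Agrp-201, the short form, made up 92.7% of the estimated Agrp counts in ARH and 25.9% of those summed over the other 23 groups. Agrp-203, whose first exon (chr8:105579650-105579845) starts 11547 bases upstream of the Agrp-201 start, made up 2.08% in ARH and 66.5% elsewhere. It was the largest form by TPM in 18 of the other 23 groups. All of this rests on 398 estimated counts outside ARH against 2019 in ARH. Agrp-203 shares 478 of its exonic bases with Agrp-201, and the split was estimated by the authors' software from short reads. The remaining form, Agrp-202, starts 69095 bases upstream of Agrp-201, where the annotation also holds Gm5914 on the same strand and Ctcf on the opposite strand, so reads there cannot be assigned to Agrp with certainty.

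**Figure D2:**
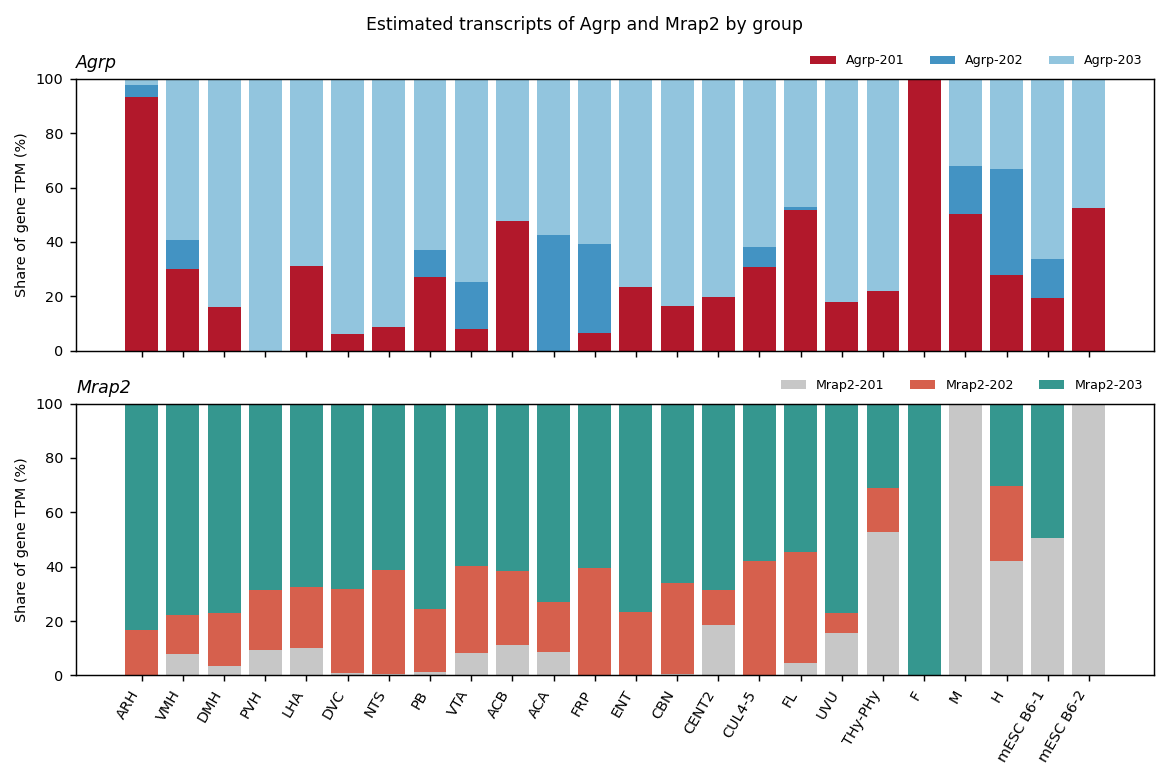
Share of gene TPM carried by each annotated transcript of Agrp (upper panel) and Mrap2 (lower panel), in percent, as stacked bars with 1 bar per group. Agrp-201 filled most of the Agrp bar in ARH (93.5% of TPM), whereas Agrp-203 was the largest form in 18 of the other 23 groups.

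Pomc was also carried by several transcripts. In ARH, Pomc-203 held 41.8% of Pomc TPM, Pomc-202 held 35.4% and Pomc-204 held 21.1%. By estimated counts the order changed, with Pomc-202 at 47.5%, Pomc-204 at 29.5% and Pomc-203 at 20.8%, since TPM corrects for transcript length. Over the other 23 groups Pomc-202 held 62.9% of the counts and was the largest form by TPM in 22.

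Mc3r encodes the receptor found on arcuate neurons themselves as well as on their targets. Its levels fell in steps across the hypothalamus. The ARH libraries held 13.8, 10.7 and 12.4 TPM, and the VMH libraries 6.20 and 5.86 TPM. DMH held 2.33, 1.52, 2.44 and 2.45 TPM and PVH 1.68 and 2.58 TPM. LHA was lowest at 0.887, 1.21 and 0.918 TPM. ARH, VMH and the DMH and PVH pair were separate in range, and the LHA libraries lay below all of them. DMH and PVH did not differ beyond their spread.
Outside the hypothalamus the gene reached a mean of 1 TPM in ACB (2.05, 1.37 and 1.85 TPM), VTA (0.610, 1.57 and 1.40 TPM) and PB (0.999, 1.38 and 1.07 TPM). The ACB libraries lay above the LHA libraries. In the 9 cortical libraries Mc3r ran from 0 to 0.150 TPM, and in the 15 libraries of vermis and flocculus from 0 to 0.300 TPM. CBN, the deep nuclei, stood above the vermis and flocculus at 1.29, 0.586 and 0.492 TPM.

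The fits followed these levels. Mc3r was 13.6-fold higher in the hypothalamus than in the other adult regions (log2 fold change 3.76, SE 0.20, edgeR adjusted p = 2.89e-22). It was 4.99-fold higher in ARH than in the other nuclei (2.32, SE 0.34, edgeR adjusted p = 5.76e-07) and lower in LHA (-1.97, SE 0.45, edgeR adjusted p = 0.000819). In VMH the value was 1.08 (SE 0.41, edgeR adjusted p = 0.145), not called, although DESeq2 called it (adjusted p = 0.00388). ACB was higher than the other adult regions by 2.05 (SE 0.32, edgeR adjusted p = 5.74e-07). VTA was higher by 1.89 (SE 0.33, edgeR adjusted p = 7.05e-06), and by 1.97 without the library of large mitochondrial share. Cortex was lower (-3.18, SE 0.47, edgeR adjusted p = 4.37e-08), as was cerebellum (-2.72, SE 0.33, edgeR adjusted p = 3.18e-10). On log2(TPM + 0.5) with limma, which shrinks low values, the ACB and VTA differences were 0.84 and 0.36, below the fold limit.

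Mc4r, the receptor whose loss causes the most severe obesity of the family, was highest in the hindbrain. The DVC libraries held 4.47, 5.97 and 5.06 TPM, the NTS libraries 4.29, 4.56, 2.79 and 5.44 TPM and the PB libraries 3.17, 3.56 and 2.32 TPM. DVC and NTS overlapped, NTS and PB overlapped, and DVC lay above PB.
Levels in the hypothalamus were lower and nearly even: 2.00, 2.61 and 2.59 TPM in ARH, 1.74 and 2.84 TPM in VMH, and 1.62, 1.85, 2.09 and 2.47 TPM in DMH. LHA held 2.09, 1.25 and 1.42 TPM and PVH, a well studied site of Mc4r action, 1.03 and 2.09 TPM. All 5 nuclei overlapped in range and no nucleus was called against the others. The cortical libraries spanned the hypothalamic range, from 0.750 to 2.92 TPM with a median of 1.86 TPM against 2.05 TPM, and this pair was not tested. The 18 cerebellar libraries ran from 0 to 0.596 TPM with a median of 0.1001 TPM. Mc4r (ENSMUSG00000047259.3) has 1 annotated transcript.

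Mc4r was 5.65-fold higher in the hindbrain nuclei than in the other adult regions (log2 fold change 2.50, SE 0.20, edgeR adjusted p = 3.64e-15) and 15.4-fold lower in cerebellum (-3.94, SE 0.26, edgeR adjusted p = 6.29e-19). The other adult regions included the cerebellum, so 5.65 is not the difference from hypothalamus or cortex, which was not tested. Region means were 3.02 to 5.17 TPM in the hindbrain nuclei, 1.56 to 2.40 TPM in the hypothalamus and 1.47 to 2.02 TPM in cortex. Both hypothalamus (1.24, SE 0.20, edgeR adjusted p = 7.30e-07) and cortex (1.15, SE 0.23, edgeR adjusted p = 1.65e-05) were called higher, each against a mean that included the cerebellum. Both of these calls were lost with limma on log2(TPM + 0.5), at 0.66 and 0.44. Within the hindbrain, PB did not differ from DVC and NTS beyond the spread (-0.73, SE 0.44, edgeR adjusted p = 0.401). In the stem cells no Mc4r count was seen among 66711813 summed over 4 libraries, which allows up to 0.0450 CPM (counts for each 1000000 in the library) by the limit of 3 counts, counting error only.

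The balance of the receptors differed between hypothalamus and hindbrain, with DMH near even and LHA between DMH and PB. The balance was taken as log2 of Mc3r over Mc4r TPM, with 0.1 TPM added to each. By library, LHA (-1.15 to -0.037) overlapped both DMH (-0.27 to 0.498) and PB (-1.57 to -1.05). The mean was 2.31 ± 0.37 (SD, n = 3) in ARH, 1.40 ± 0.53 (n = 2) in VMH, 0.47 ± 0.26 (n = 2) in PVH, 0.11 ± 0.33 (n = 4) in DMH and -0.59 ± 0.56 (n = 3) in LHA. In the hindbrain it was -1.31 ± 0.26 (n = 3) in PB, -3.28 ± 0.06 (n = 3) in DVC and -3.76 ± 0.63 (n = 4) in NTS. Mc3r thus exceeded Mc4r in every ARH, VMH and PVH library, and Mc4r exceeded Mc3r in every LHA and hindbrain library.
Over libraries, the hypothalamic mean was 0.67 (n = 14) and the hindbrain mean -2.88 (n = 10), a difference of 3.55 (two-sided permutation test with 100000 resamples, p = 4e-05). Libraries of different regions share mice and are not independent. Libraries of 1 region are also not replicates of a whole brain division, and the regions differed within each side. The p-values of these permutation tests therefore measure only the spread between these libraries. Within the hypothalamus, 5 comparisons of 1 nucleus with the others were made and adjusted together. ARH stood above by 2.09 (p = 0.00549 in a two-sided exact permutation test, 0.0275 after adjustment), and 0.00549 is the smallest p that 3 against 11 libraries allow. LHA stood below by 1.60 (a difference of -1.60, exact permutation p = 0.011, adjusted p = 0.0275). For VMH (0.85, exact permutation test, adjusted p = 0.412), DMH (-0.78, exact permutation test, adjusted p = 0.412) and PVH (-0.23, exact permutation test, adjusted p = 0.879) the difference lay within the spread, with ARH on the other side. Both VMH libraries (1.77 and 1.02) lay above every PVH, DMH and LHA library, the highest of which was a PVH library at 0.656. Leaving out any ARH library raised the ARH adjusted p to 0.0641, since fewer arrangements remain.

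VTA (0.46 ± 0.18, n = 3) and ACB (0.39 ± 0.29, n = 3) lay near an even balance. CBN stood at 1.32 ± 0.84 (SD, n = 3), with Mc3r above Mc4r in all 3 libraries, on Mc3r counts of 29, 15 and 13 and Mc4r counts of 7, 12 and 2. The cortical regions had negative values, as did the caudal hindbrain, at -3.46 ± 0.50 in ACA, -3.34 ± 0.43 in FRP and -3.46 ± 0.48 in ENT (SD, n = 3 each). There and in the caudal hindbrain the ratio rests on few Mc3r counts, summed over libraries 8 in FRP, 6 in ACA, 2 in ENT, 24 in NTS and 32 in DVC, and its size depends on the added 0.1 TPM. In the vermis and flocculus both receptors were near 0 and the ratio is not read.

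**Figure D3:**
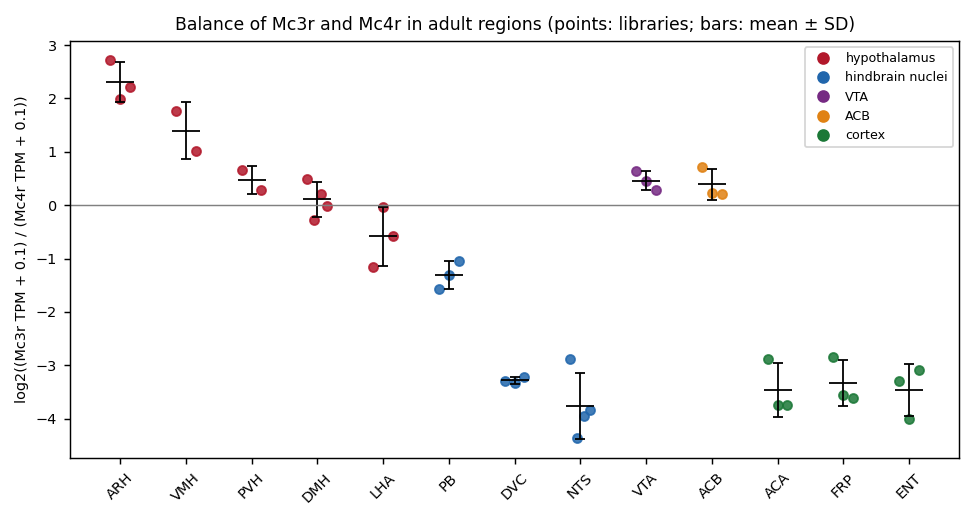
Log2 of (Mc3r TPM + 0.1) over (Mc4r TPM + 0.1) in 13 adult regions, with a point per library and the mean with its SD. ARH and VMH lie above the line of an even balance (means 2.31 and 1.40), and PB, DVC and NTS below it (means -1.31, -3.28 and -3.76).

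Mrap2, the accessory protein gene, had a higher mean than either receptor in every adult region. It was high in the adult hindbrain and hypothalamus alike. In the embryonic groups H and F, Mc4r was above Mrap2 (1.75 against 1.35 TPM and 0.970 against 0.771 TPM). DVC held 39.0, 42.1 and 44.9 TPM, PB 37.2, 40.3 and 38.9 TPM, VMH 37.2 and 39.5 TPM, and NTS 38.4, 34.8, 33.5 and 36.8 TPM. These 4 groups overlapped as neighbors, and all their libraries lay above all libraries of the next group, DMH, at 31.6, 23.2, 29.6 and 31.2 TPM. ARH followed at 30.2, 25.2 and 30.8 TPM, LHA at 25.0, 28.1 and 30.7 TPM and PVH at 22.3 and 26.8 TPM.
CBN, where both receptors had a mean under 1 TPM, held 27.6, 29.5 and 22.3 TPM of Mrap2, within the hypothalamic range. The 15 libraries of vermis and flocculus ran from 2.38 to 15.02 TPM with a median of 3.83 TPM, all below CBN. Cortex ran from 3.82 to 9.53 TPM and ACB held 9.36, 6.41 and 9.37 TPM. The VTA libraries held 4.93, 22.5 and 13.3 TPM, the lowest being the one with the large mitochondrial share.

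Mrap2 was 3.48-fold higher in the hindbrain nuclei than in the other adult regions (log2 fold change 1.799, SE 0.11, edgeR adjusted p = 4.78e-20). In the hypothalamus it was 2.52-fold higher (1.34, SE 0.10, edgeR adjusted p = 2.73e-16). It was lower in cortex (-1.36, SE 0.14, edgeR adjusted p = 7.08e-12) and cerebellum (-1.50, SE 0.11, edgeR adjusted p = 3.01e-17), the latter with CBN included. No hypothalamic nucleus was called against the others, with log2 fold changes from -0.29 in PVH to 0.44 in VMH. PB against DVC and NTS gave -0.09 (SE 0.23, edgeR adjusted p = 0.926). Differences in Mrap2 were thus called between parts of the brain and not between nuclei of the hypothalamus or hindbrain.
Most Mrap2 was assigned to Mrap2-203, with 81.9% of the counts in ARH and 67.4% over the other groups. Mrap2-202 held 38.4% of TPM in NTS and 30.9% in DVC against 16.7% in ARH. Its share was as large in regions with less Mrap2, at 42.2% in CUL4-5, 40.9% in FL and 39.4% in FRP, and in CBN (33.8%) and VTA (31.9%), so it was not particular to the caudal hindbrain. Single libraries ranged from 29.5% to 62.5% in NTS and from 9.08% to 33.7% in ARH, so the ranges overlapped.

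The library numbers in the labels fall into 4 consecutive runs (A to D), each holding 3 or 4 hypothalamic libraries, and the differences were recomputed within each run on log2(TPM + 0.1). Samples were collected in batches, the runs were not matched to those batches here, and 2 adult libraries numbered outside them were not used for this. Mc4r was higher in the hindbrain by 2.40, 2.44, 2.22 and 2.27 on the log2 scale in the 4 runs, and Mrap2 by 1.52, 1.76, 2.09 and 1.78. In the hypothalamus Mrap2 was higher by 0.97, 1.39, 1.83 and 1.45, Mc4r by 1.02, 0.98, 1.41 and 1.32 and Mc3r by 1.76, 3.12, 4.35 and 3.25. The sign of these differences was the same in each of the 4 runs. Mc3r in the hindbrain changed sign between runs, at 0.33, -0.44, -0.81 and 0.026. For the ligands, run A, which held no ARH library, gave 0.13 for Pomc and -1.18 for Agrp, against 2.28 to 4.06 and 1.64 to 2.90 in the others.

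Counted over the members, all 5 were called higher in the hypothalamus than in the other adult regions, where 8.8% of all genes were called. With ARH left out, 3 of them were called. Mean Agrp in the other hypothalamic nuclei ran from 0.916 TPM in DMH to 1.71 TPM in VMH, below the 2.44 TPM of FL. The hindbrain nuclei had 2 members called (Mc4r and Mrap2, both higher) with a background of 7.84%. Cortex had 3 (Mc4r higher, Mc3r and Mrap2 lower) with 16.1%, ACB had 1 (Mc3r) with 12.8% and VTA had 1 (Mc3r) with 10.5%. Cerebellum had 4 called, all lower, with 15.9%: Pomc (-1.12, SE 0.19, edgeR adjusted p = 5.08e-07), Mc3r, Mc4r and Mrap2. The Pomc difference was taken against a mean that included ARH and was not refitted without it. Region means of Pomc were 2.03 to 3.30 TPM in cerebellum and 2.13 to 2.67 TPM in cortex.
Within the hypothalamus, ARH had 3 called (Pomc, Agrp and Mc3r, all higher) with a background of 6.81%. DMH had 2 (the ligands, lower) with 0.606%, LHA had 3 (the ligands and Mc3r, lower) with 5.02% and PVH had 1 (Pomc, lower) with 2.06%. The mean on the other side included ARH with its high ligand levels, so these ligand calls are not read as a result about DMH, LHA or PVH. In VMH edgeR called 0 members, with 1.49% of all genes called. There, 2 members had an unadjusted edgeR p under 0.05: Agrp, lower at -1.20 against a mean that included ARH, and Mc3r, higher at 1.08. DESeq2 called 1, Mc3r. Between PB and the caudal pair DVC and NTS, 1 member was called, Mc3r, higher in PB (1.70, SE 0.45, edgeR adjusted p = 0.00969), with a background of 2.3%. That call was lost without PB replicate 2 (edgeR adjusted p = 0.0751).

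**Figure D4:**
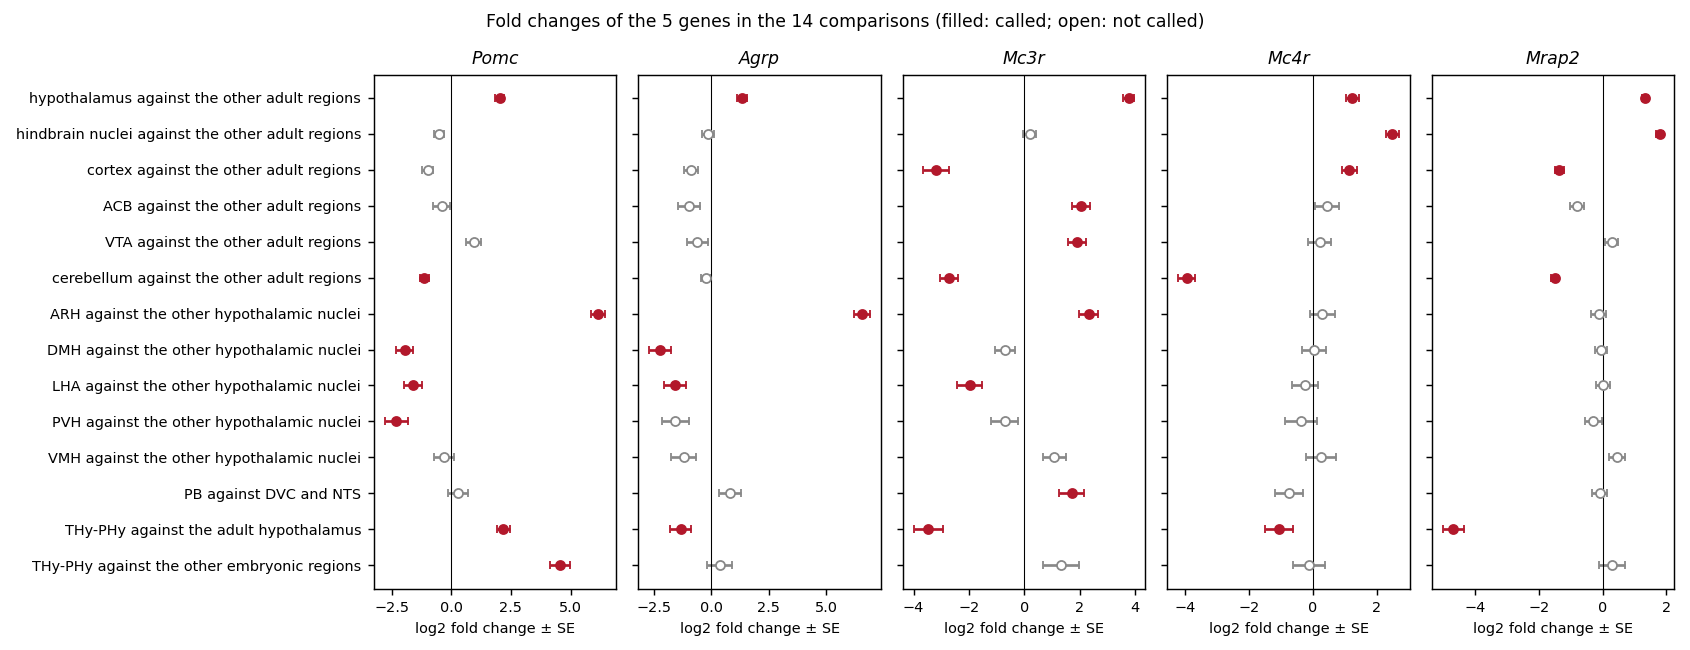
Log2 fold changes of the 5 genes in the 14 comparisons, from edgeR, with bars of 1 SE on each side, filled red points where the gene was called and open gray points where it was not. The ligands and Mc3r are displaced to the right in ARH (6.16, 6.56 and 2.32), and Mc4r and Mrap2 in the hindbrain nuclei (2.50 and 1.799).

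To see which regions held ligand, receptor or both, a gene was counted as present at a group mean of 1 TPM or more. Pomc reached it in all 24 groups, Agrp in 15, Mc3r in 8, Mc4r in 13 and Mrap2 in 20. A ligand and a receptor were present together in 14 groups, and a ligand alone in the remaining 10: CBN, CENT2, CUL4-5, FL, UVU, F, M, THy-PHy and the 2 stem cell clones. Because Pomc passed the limit in every group, these counts follow the receptors alone and carry no information on the ligands. Pomc also passed in every group at 0.5 TPM. Both receptors were present in 7 groups (ACB, ARH, DMH, LHA, PB, PVH and VMH). Mc3r stood alone in VTA, and Mc4r stood alone in 6 (ACA, DVC, ENT, FRP, H and NTS).
All 14 groups with a receptor also held Mrap2. The converse was not so, since 6 groups had Mrap2 with neither receptor (CBN, CENT2, CUL4-5, FL, THy-PHy and UVU). The limit mattered for the counts: at 2 TPM, ligand and receptor met in 8 groups (ACA, ARH, DMH, DVC, NTS, PB, PVH and VMH) and Agrp remained in 3 (ARH, FL and PB). At 0.5 TPM they met in 18, with CBN, F, M and THy-PHy added, and a ligand stood alone in 6. At 1 CPM they met in 14, with CBN, F and THy-PHy among them, and ENT, FRP and H held a receptor without a ligand. In CPM, Agrp reached 1 in ARH alone, and F held a receptor without Mrap2.

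Across the 18 adult regions, Pearson's r between log2(mean TPM + 1) values was 0.83 for Pomc and Mc3r, 0.66 for Mc4r and Mrap2, 0.58 for Mc3r and Mrap2 and 0.33 for Mc3r and Mc4r. Spearman's rho was 0.89, 0.77, 0.69 and 0.43 in the same order. The points are region means from the same libraries and mice, so these values describe the atlas and carry no test.

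The embryonic hypothalamus held ligand with little receptor or accessory gene. THy-PHy had a mean of 71.7 ± 33.5 TPM of Pomc (SD, n = 3), as given by library above. Its Agrp was 1.98, 0.974 and 0.763 TPM, its Mc3r 0.185, 0.335 and 0.320 TPM, its Mc4r 1.26, 0.860 and 0.586 TPM and its Mrap2 1.02, 0.922 and 1.34 TPM. All THy-PHy values of Mc3r and Mrap2 lay below all 14 adult hypothalamic values, whereas those of Agrp and Mc4r overlapped the adult range.
Against the adult hypothalamus, the Pomc contrast was 2.18 on the log2 scale (SE 0.28, edgeR adjusted p = 8.01e-10). The contrast averages the 5 adult nuclei on the log scale, and 4 of them were low in Pomc. By the mean of region means the adult hypothalamus held more, at 115 TPM against 71.7 TPM, and every ARH library lay above every THy-PHy library. Mrap2 was 25.5-fold lower (-4.67, SE 0.33, edgeR adjusted p = 5.82e-18) and Mc3r 11.1-fold lower (-3.47, SE 0.52, edgeR adjusted p = 5.83e-08). Agrp (-1.34, SE 0.47, edgeR adjusted p = 0.0114) and Mc4r (-1.05, SE 0.44, edgeR adjusted p = 0.0339) were also called lower. For Agrp the adult mean included ARH at 132 TPM. The THy-PHy mean of 1.24 TPM lay within the 0.916 to 1.71 TPM of the other 4 nuclei. The Agrp call is therefore not read as a difference from those nuclei. All 5 were thus called, where 38.3% of all genes were. The Agrp and Mc4r calls were both lost without THy-PHy replicate 2 or without THy-PHy replicate 3. Age and time of collection cannot be told apart in this comparison.

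Within the embryo only Pomc was called in THy-PHy against F, M and H, higher by 4.56 (SE 0.41, edgeR adjusted p = 5.42e-12), with 3.27% of all genes called. H, the embryonic hindbrain, held 1.78, 1.65 and 1.802 TPM of Mc4r, above the other 6 embryonic libraries, and 1.23, 1.22 and 1.59 TPM of Mrap2. The difference in Mc4r was not tested. The 9 embryonic libraries ran from 0.582 to 1.59 TPM of Mrap2, all below the lowest adult value of 2.38 TPM. The stem cell libraries lay lower still, between 0.263 and 0.433 TPM.

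A list of 32 other genes of the pathway was counted in the same way, and 30 passed the filter on low counts (Asip and Mc2r did not). The list was chosen to include genes of arcuate and other hypothalamic neurons, such as Npy, Cartpt, Tbx3 and Sim1. An excess of calls in hypothalamus or ARH was thus partly set by that choice and is not read as a result. In the hypothalamus 6 of the 30 were called higher and 2 lower, where 5.88% and 2.92% of all genes were. The higher ones included the transcription factors Nkx2-1 (log2 fold change 7.89), Sim1 (7.77) and Bsx (7.04), the peptide precursor Cartpt (4.42) and the amidating enzyme Pam (1.28). None of the 4 agouti-related genes tested was called, and 1 of the 5 processing enzymes was.
In ARH 9 of 30 were called higher and 1 lower, with 4.499% and 2.31% over all genes. Npy, made by the Agrp neurons, rose by 4.18, and Tbx3, a factor needed for arcuate neuron identity, by 3.99, followed by Bsx (3.31), the potassium channel gene Kcnj13 (3.27) and Nkx2-1 (2.16). Of the 9 genes grouped as upstream of the system, 6 were called higher in ARH, and of the 5 processing enzymes none. PVH had 4 called lower, Bsx (-6.62), Nkx2-1 (-3.17), Cartpt (-1.62) and Tbx3 (-1.23), where 0.606% of all genes were. VMH had 3 called higher, Bsx (1.85), Nkx2-1 (1.39) and Cartpt (1.32), and 2 lower, Npy (-1.89) and Tbx3 (-1.45), with 0.787% and 0.701% over all genes. DMH had Bsx alone (2.08, higher in 0.451% of all genes) and LHA Mc1r alone (1.88, higher in 2.37%). Mean Mc1r in LHA was only 0.488 TPM. Each of these nuclei was set against a mean that included ARH.

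The hindbrain nuclei, where Mc4r and Mrap2 were highest, had 1 of the 30 called, Npy at -1.57 (lower in 2.66% of all genes). PB against DVC and NTS had Cartpt (-1.60, lower in 0.857% of all genes). Cerebellum had 3 higher, Kcnj13 (2.83), the transcription factor Nhlh2 (2.02) and the melanocortin receptor gene Mc1r (1.33), and 4 lower, including Cartpt (-5.57) and Pam (-1.83), where 7.70% and 8.24% of all genes were called. Mean Mc1r was under 1 TPM in every cerebellar region, from 0.350 TPM in UVU to 0.806 TPM in CENT2. Cortex had 5 higher and 2 lower, with Npy at 3.33 and Bdnf, which acts downstream of Mc4r, at 1.63, and a background of 8.16% and 7.97%. ACB had 4 higher and 6 lower, with 7.26% and 5.52%, and VTA 4 higher and 1 lower, with 6.90% and 3.64%.
In THy-PHy against the adult hypothalamus 8 were called higher and 8 lower, with 18.9% and 19.4% over all genes, so little is read from these counts. The prohormone convertase Pcsk1, which begins the cutting of the Pomc precursor, fell by 3.49 on the log2 scale, and 4 of the 5 processing enzymes were called lower. Ntrk2, the receptor of Bdnf, was at -3.00 and Cartpt at -3.25, whereas Nkx2-1 (3.44) and Nhlh2 (3.25) were higher. Against the other embryonic regions 6 were called higher and none lower in THy-PHy, with 2.26% and 1.01% over all genes, led by Bsx (5.37), Nkx2-1 (5.31), Sim1 (4.91), Tbx3 (4.05) and Cartpt (2.27). The median log2 fold change of the 30 genes was 0.34 in the hypothalamus and 0.40 in ARH, against -0.03 and 0 over all genes tested. Because the list was chosen to include hypothalamic and arcuate genes, these medians and the THy-PHy excess are not read as results.

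The genes nearest to each member in pattern were ranked by Pearson's r of log2(mean TPM + 1) over the 22 brain regions, among 18721 genes. For Pomc these were Cga (0.935), Rax (0.930) and Tbx19 (0.921), of which Cga and Tbx19 are in the pituitary list above. For Agrp they were Gm12053 (0.978), Gm44389 (0.978) and Apoa4 (0.973), each with a highest mean under 3 TPM. Mc3r had Sstr5 (0.955), a somatostatin receptor gene, 6430628N08Rik (0.938) and AI467606 (0.935). Mc4r had Ido2 (0.841), Uprt (0.827) and Srp19 (0.818), lower than for any other member. Mrap2 had Asb16 (0.965), Slc6a11 (0.960), a GABA transporter gene, and Fgfr3 (0.958), and both of the latter are expressed in astrocytes. The ranking changed with the measure: by Spearman's rho the nearest gene was Kcnj5 for Pomc, Glra4 for Agrp, Il13ra1 for Mc3r, Grpr for Mc4r and Ache for Mrap2.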

How the data were processed

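The authors estimated transcript abundance with kallisto from single reads on GRCm38 and deposited estimated counts per transcript and TPM per transcript and gene. CASAVA 1.8.2 is also named in the submitters' processing notes. The deposited estimated counts are not normalized between libraries, whereas the deposited TPM are scaled to transcript length and library by the authors. Transcripts were matched to genes with GENCODE release 21, which matched 98.7% of 109282 transcripts, and the counts left unmatched were 0.432% to 0.788% of each library. Counts were summed per gene, rounded, filtered with filterByExpr, scaled with TMM and fitted in 1 model of 24 groups and 70 libraries with edgeR's quasi-likelihood test (edgeR 4.0.16, R 4.3.3). Contrasts weighted the regions of a side equally. P-values were adjusted over 19960 genes by Benjamini and Hochberg, and the same was done over the nuclei for the receptor balance, which was tested by permutation in SciPy 1.17.1. Figures were drawn with matplotlib 3.10.9.

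The 5 genes, the pathway list and the marker lists were chosen with earlier results of these data known. Beyond the 5 genes, the text names the 3 genes most alike each member and, per comparison, up to 5 called pathway genes with the largest absolute log2 fold change. Libraries were grouped by the labels. Replicate numbers did not pair the samples (median correlation of the deviations of same-numbered libraries 0.0118 over 436 pairs). In every pair of replicates the chi-square divided by the number of genes was 2.59 or more, so each library was counted on its own. On simulated data for the hypothalamus comparison, the test recovered 180 of 190 tested genes changed 3-fold, with 2 false calls in 18539 genes. Alternatives were DESeq2 1.42.0, limma 3.58.1 on log2(TPM + 0.5) and log2(TPM + 0.1), upper-quartile scaling, no filter, the stage fitted alone, blocks, other limits of presence and leaving out each library. Fits without a library kept the trend of the spread from all libraries. Depth limits the lowest values, where a library holds few counts of a receptor, and intervals and limits cover counting error only.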

Additional observations from a re-analysis of the deposited data

Results flagged for a closer look

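Among 25 sets of values of 1 gene in 1 group of 4 libraries, 3 had a library far from the rest by Dixon's test, and chance alone flags about 1 in 20. In DMH, Mc3r was 1.52 TPM in replicate 2 against 2.33, 2.44 and 2.45 TPM in the others. In CENT2, Mc4r was 0.596 TPM in replicate 1 against 0, 0 and 0.0929 TPM, and the same library held the highest Mrap2 of the group, 15.02 TPM against 2.77 to 6.52 TPM. In FL, Mc4r was 0.200 TPM in replicate 2 against 0.0935, 0.107 and 0.107 TPM, a difference that rests on 5 counts against 2 or 3.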

How the results depend on the processing

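Of the 70 fold changes of a member in a comparison, 32 were called, and over 700 alternatives of these 0 changed direction and 24 lost the call, in 12 of the 32. The number of members called moved as follows. Without ARH the hypothalamus had 3. With limma on log2(TPM + 0.5), ACB, VTA and PB had 0 and PVH had 2. With DESeq2, VMH had 1. At 2 TPM, 8 groups held a ligand and a receptor. Leaving out a library gave 3 to 5 in cortex (5 without ACA replicate 1 or ENT replicate 2), 1 to 2 in ACB (2 without ACB replicate 3) and 1 to 2 in VTA (2 without VTA replicate 2 or 3). It gave 0 to 1 in PVH (0 without PVH replicate 1), 0 to 1 in PB (0 without PB replicate 2) and 3 to 5 in THy-PHy against the adult hypothalamus (3 without THy-PHy replicate 2 or 3). For the Mc3r to Mc4r balance, the ARH difference ran from 1.89 to 2.25 and the LHA difference from -1.87 to -1.32. Their adjusted p rose to 0.0641 without any 1 ARH library, and that of LHA to 0.0641 or 0.128 without an LHA library, with fewer arrangements in each case.

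The values that changed sign were all of genes not called there. With limma on log2(TPM + 0.5) and log2(TPM + 0.1), Mc3r in the hindbrain was -0.37 and -0.20, and VTA gave Pomc -0.30 and -0.35, Mc4r -0.42 and -0.35 and Mrap2 -0.28 and -0.28. In VTA these scales moved the median of all genes by -0.39 and -0.47, and 15.5% and 13.3% of its calls were higher against 65.5% with edgeR. Mrap2 in LHA was -0.090 and -0.091 with limma, -0.050 with the run of library numbers as a block and -0.020 with upper-quartile scaling. Mrap2 in PB was 0.0013 and 0.0013 with limma. Mrap2 in DMH was 0.0038 with the replicate block, which changed no count of members called. Leaving out a library moved Pomc in VTA from -0.78 to 1.48, Mrap2 in VTA from -0.027 to 0.52, Mc4r in DMH from -0.069 to 0.18, Mrap2 in DMH from -0.087 to 0.040 and Mrap2 in LHA from -0.041 to 0.078. It moved Mc4r in PVH from -0.90 to 0.019, Pomc in VMH from -1.32 to 0.30, Mc4r in VMH from -0.12 to 0.56, and, in THy-PHy against the other embryonic regions, Agrp from -0.023 to 0.83 and Mc4r from -0.35 to 0.064. The cause of these changes was not tested.

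Over all genes, THy-PHy against the other embryonic regions had 110 genes called with the embryonic libraries alone against 653. With limma on log2(TPM + 0.5) the hypothalamus had 1062 against 1756 and the hindbrain 886 against 1564, and on log2(TPM + 0.1) VTA had 3163 against 2105 and VMH 185 against 297.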
